A study of Rattus norvegicus with 6 samples.

Results

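The genes of fatty acid synthesis and Srebf1 were followed through the differentiation of cultured rat oligodendrocyte precursors. They comprised 5 of the 20174 rat Ensembl gene identifiers that each have 1 probe on the array: ENSRNOG00000003463 (Srebf1), ENSRNOG00000016924 (Acly), ENSRNOG00000034013 (Acaca), ENSRNOG00000013552 (Scd) and ENSRNOG00000020480 (Fads1). They were chosen by identifier, and the symbols come with that choice, since the array files list identifiers without symbols. The series held 6 single-colour arrays of Cy5-labelled amplified RNA. The day 0 group (n = 3) was precursors grown in Raff medium before differentiation. The day 3 group (n = 3) was the same kind of culture after a change of growth factors. The labels call these the control and the differentiated condition, under the heading cit induced switching, which was not interpreted here. No strain, age, genotype or drug is given in the labels, and nothing in them shows that a group's arrays are from different cultures; every p-value therefore reflects the spread of these arrays, which may be technical. In each group 2 arrays carry a number in their titles and the other is unnumbered. Markers of oligodendrocytes and of other cells could not be used to check the labelled cell type, because the files and the reference table pair none of the other identifiers with a symbol.

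Myelin is rich in lipid, and oligodendrocytes make much of its fatty acid themselves when they mature. Acly, ATP-citrate lyase, cleaves citrate in the cytosol to give acetyl-CoA, and Acaca, acetyl-CoA carboxylase alpha, turns acetyl-CoA into the malonyl-CoA from which fatty acid chains are built. Scd, a stearoyl-CoA desaturase, puts a double bond into saturated chains, and Fads1, a fatty acid desaturase, acts on polyunsaturated chains rather than on newly made saturated ones. Srebf1 encodes SREBP-1, a membrane-bound transcription factor that is freed by cleavage and is known to activate genes of fatty acid synthesis and desaturation.

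The 250 bases before the annotated start of Fads1, Acly and Scd are shown because these are the genes whose signal was measurable. They come from RefSeq on the GRCr8 assembly, were matched by symbol, and are given 5′ to 3′ on the strand of the gene. The Fads1 window is chr1:216252442-216252691 on the plus strand. The Acly window is chr10:85963632-85963881 and the Scd window chr1:253231732-253231981, both on the minus strand. Capitals mark matches on either strand to the CCAAT box, CCAAT, or the GC box, GGGCGG.
Fads1: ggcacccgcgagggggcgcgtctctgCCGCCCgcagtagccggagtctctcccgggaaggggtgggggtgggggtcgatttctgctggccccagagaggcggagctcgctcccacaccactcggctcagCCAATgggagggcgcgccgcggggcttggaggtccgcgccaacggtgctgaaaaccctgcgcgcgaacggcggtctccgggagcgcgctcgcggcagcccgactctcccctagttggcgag
Acly: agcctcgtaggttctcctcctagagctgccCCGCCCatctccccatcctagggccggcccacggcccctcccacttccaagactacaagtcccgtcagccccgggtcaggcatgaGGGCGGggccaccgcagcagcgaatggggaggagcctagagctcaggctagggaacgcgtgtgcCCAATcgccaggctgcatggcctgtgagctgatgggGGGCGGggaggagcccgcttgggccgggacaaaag
Scd: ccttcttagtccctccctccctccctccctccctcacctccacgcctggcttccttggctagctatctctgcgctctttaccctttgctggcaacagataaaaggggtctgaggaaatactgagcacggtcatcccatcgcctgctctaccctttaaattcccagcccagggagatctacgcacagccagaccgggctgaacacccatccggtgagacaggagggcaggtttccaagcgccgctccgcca
Fads1 and Acly each held 1 CCAAT, at 121 and 71 bases before the start. The GC box occurred 1 time in Fads1 and 3 times in Acly. The Scd window held neither. Of 33469 RefSeq windows of this length, 34.0% held CCAAT and 30.5% held the GC box. The sterol regulatory element TCACNCCAC, found in 0.974% of windows, and the E-box CACGTG, found in 5.59%, matched none of the windows shown. A match is a description of the letters and not a binding site. RefSeq also lists Scd as another name of the related gene Scd2, and the array files give no probe sequence, so whether the Scd probe also reads Scd2 was not tested.

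Fads1, Acly and Scd had higher signals on every day 3 array than on any day 0 array. On the normalised log2 scale they also separated in this way, as did 10.2% of all genes tested, with the reverse in 9.11%. For the spot signal itself that share was not computed. Srebf1 and Acaca were at the level of blank spots at both times. Which gene passed the test depended on the design and on the processing. In the main processing, set out below, Fads1 passed without a block (adjusted p = 0.0218, against 0.203 for Scd, limma). Scd passed there with arrays of the same number as a replicate block (adjusted p = 0.0400, against 0.0639 for Fads1, limma). Acly passed in neither fit. The labels do not say that arrays of the same number are paired, and the block was taken from correlations within these same data. The unnumbered arrays were also taken as a pair. Detection limits, set per array from its blank spots without their brightest and dimmest 5% (mean plus 2 SD), lay between 13.9 and 16.9 scanner units, and 74.3% to 83.4% of gene probes lay above them. Probes above the limit on all 3 arrays of either group were tested. These were 15437, and Fads1, Acly and Scd were among them. Signals were corrected for background against the blank spots, put on the log2 scale and quantile normalised, and groups were compared with limma. In that fit 126 genes were higher at day 3 (0.816% of those tested, adjusted p under 0.05) and 55 were lower (0.356%). Of the 5 genes 1 was called in this fit without a block, and it was higher. All values are from whole cultures, in which fewer cells of a type and less RNA per cell cannot be told apart.

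**Figure D1:**
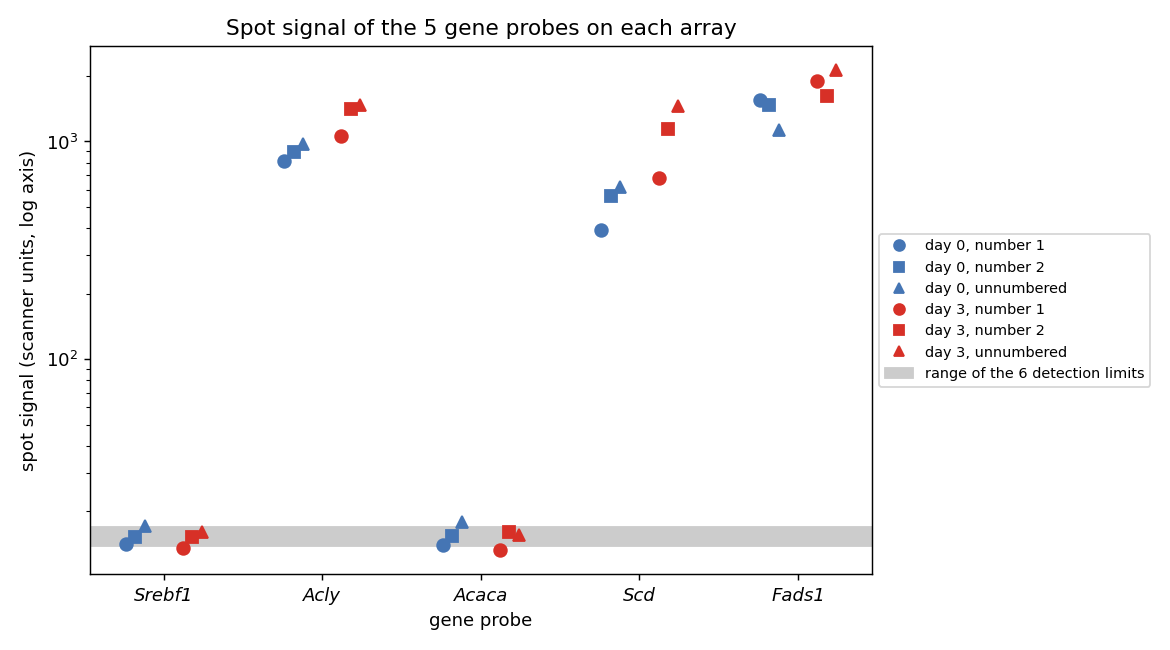
Spot signal in scanner units (log axis) of the 5 gene probes on each of the 6 arrays, blue for day 0 and red for day 3, with 1 symbol per pair of arrays; the grey band spans the 6 detection limits, 13.9 to 16.9. Srebf1 and Acaca lie in or beside the band, while the day 3 points of Acly, Scd and Fads1 lie above all of their own day 0 points.

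Srebf1, the regulator, had no measurable signal. At day 0 its spot read 14.2, 15.2 and 17.1 scanner units (number 1, number 2, unnumbered), and at day 3 it read 13.6, 15.2 and 16.1. Only the unnumbered day 0 array exceeded its limit, at 1.01 times that limit, and the groups overlapped. Between 8.56% and 31.9% of the blank spots of the same array were at least as bright. The probe was therefore not well above background in either group, and no fold change is given. This says nothing of the SREBP-1 protein, whose cleavage is not measured on an array of RNA.

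Acaca was not well above background either. Its signals were 14.1, 15.3 and 17.8 at day 0 and 13.2, 16.01 and 15.5 at day 3, in the order number 1, number 2 and unnumbered. It exceeded the limit on the unnumbered day 0 array, at 1.05 times, and on day 3 number 2, at 1.02 times, so that the array above the limit differed between the groups. Blank spots at least as bright made up 5.94% to 39.2% of the blanks. Acaca and Srebf1 belong to the 4737 gene probes that were not tested. A signal at the level of blank spots does not show that the RNA was absent.

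Fads1 passed the test without the replicate block and not with it. Its spot signal at day 0 was 1549.7, 1474 and 1131 on number 1, number 2 and unnumbered, and at day 3 it was 1906, 1618 and 2132. Every day 3 array was above every day 0 array, although day 3 number 2 exceeded day 0 number 1 by little. The group means were 1385 ± 223 and 1885 ± 258 (SD, n = 3), a ratio of 1.36 before normalisation. Arrays of the same day lay close together once normalised, with log2 levels of 10.32 ± 0.06 before and 11.06 ± 0.09 after differentiation (SD, n = 3). Fads1 thus changed by a log2 fold change of 0.74 (SE 0.066, 95% interval 0.57 to 0.91, adjusted p = 0.0218, limma), or 1.67-fold, and with the block the same change had an adjusted p of 0.0639 (limma). This change ranked 424th from the top among the 15437 genes by size and 56th by p-value.

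The call for Fads1 depended on the scaling, the background correction, the variance model and the design. Quantile normalisation left an SE of 0.066, whereas scaling each array to its median gave a log2 fold change of 0.52 with an SE of 0.17 (adjusted p = 0.243, limma). With quantile normalisation kept, the call was also lost with trend and robust eBayes (SE 0.20, adjusted p = 0.106, limma), plain subtraction of the blank median (adjusted p = 0.138, limma) and the replicate block. In the authors' processed values, which differ from the main setting in background, offset and scaling together and have a median of 25 on each array, Fads1 went from 736 ± 146 to 1257 ± 122 (SD, n = 3), a ratio of means of 1.71. There its adjusted p was 0.430 (limma on log2 values), against 1.79% of genes called higher. Leaving out any array but day 3 number 1 also ended the call, with adjusted p between 0.0784 and 0.117 (limma, and fewer residual degrees of freedom). The direction was the same in all 22 other fits, and 7 of them kept the call.

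Scd had the largest ratio of the 3 measurable genes but also the widest spread on the normalised scale. Its signals were 393, 561 and 616 at day 0 and 682, 1137 and 1453 at day 3, on number 1, number 2 and the unnumbered array. The groups did not overlap, and number 1 was the lowest array at both times. The means were 523 ± 116 and 1090 ± 387 (SD, n = 3), a ratio of 2.08 before normalisation. On the normalised scale the levels were 8.997 ± 0.41 and 10.24 ± 0.53 (SD, n = 3). The gap between days was larger than the SD within a day. It came to a log2 fold change of 1.24 (SE 0.34, 95% interval 0.38 to 2.11), or 2.37-fold with an interval of 1.30 to 4.31. With an unadjusted p of 0.0137 and an adjusted p of 0.203 (limma) it was not called without the block, while the block gave an adjusted p of 0.0400 (limma). For comparison, 7.16% of all genes tested were higher at an unadjusted p under 0.05.

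On the quantile-normalised scale Acly lay between these patterns. Its signals were 815, 896 and 969 at day 0 and 1063, 1404 and 1477 at day 3, on number 1, number 2 and the unnumbered array. Each day 3 array was brighter than all day 0 arrays, and number 1 was again the lowest at both times. The means were 894 ± 77.0 and 1315 ± 221 (SD, n = 3), a ratio of 1.47. On the normalised log2 scale they were 9.74 ± 0.28 and 10.55 ± 0.31 (SD, n = 3), so that the spread within a day was smaller than for Scd and larger than for Fads1. The order of Acly and Fads1 depended on the scaling. With median scaling the SE was 0.12 for Acly and 0.17 for Fads1, and with 75th percentile scaling 0.13 and 0.15. After quantile normalisation Acly differed between days by 0.81 on the log2 scale (SE 0.22, 95% interval 0.26 to 1.36, adjusted p = 0.195, limma), or 1.75-fold with an interval of 1.20 to 2.57. In the authors' processed values Acly went from 471 ± 54.4 to 877 ± 148 and Scd from 271 ± 55.7 to 723 ± 247 (SD, n = 3), ratios of 1.86 and 2.67.

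**Figure D2:**
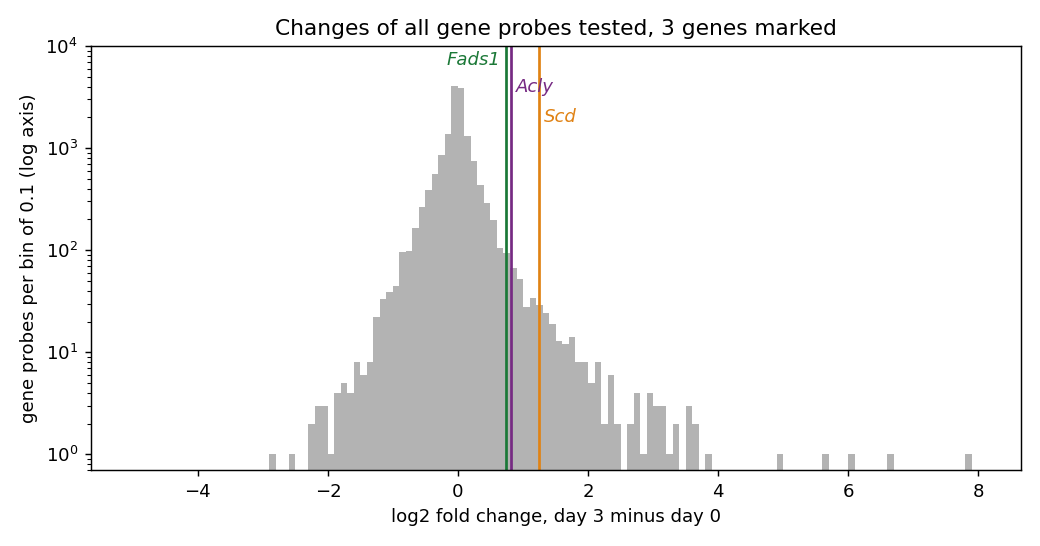
Histogram of the log2 fold change (day 3 minus day 0) of the 15437 gene probes tested, in bins of 0.1 with a log count axis; coloured lines mark Fads1 at 0.74, Acly at 0.81 and Scd at 1.24. All 3 lie in the right-hand tail, with 2.74%, 2.29% and 1.08% of genes further to the right.

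For Fads1, Acly and Scd the lowest normalised day 3 value was above the highest normalised day 0 value. So it was for 10.2% of all genes tested, with the reverse in 9.11%. A separation of 3 from 3 arrays gives an exact permutation p of 0.1 (two-sided), the smallest this design allows, for each of these genes. Among all tested genes, 2.74% had a higher log2 fold change than Fads1, 2.29% than Acly and 1.08% than Scd, while the median change was -0.0049. These genes were chosen with earlier results of the same arrays known, so their place in the distribution describes them and supports nothing further.

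Arrays of the same number, and the unnumbered arrays, deviated from their group means together, so the change was also read within these pairs. In number 1, number 2 and the unnumbered pair, Scd differed by 1.10, 1.38 and 1.25 on the normalised log2 scale. Acly differed by 0.73, 1.10 and 0.59, and Fads1 by 0.67, 0.63 and 0.91. All 9 differences were positive. Before normalisation the day 3 to day 0 ratios of spot signal in these pairs were 1.23, 1.10 and 1.88 for Fads1. They were 1.74, 2.02 and 2.36 for Scd and 1.30, 1.57 and 1.52 for Acly. On the quantile-normalised scale the change of Scd was thus similar from pair to pair, although its level differed between pairs. The level of Fads1 was alike across the arrays of a day. That likeness of Fads1 depended on the scaling. Its SE without the block was 0.066 with quantile normalisation and 0.17 with median scaling. When the pairs entered the fit as a replicate block, the SE of Scd went from 0.34 to 0.074. Its adjusted p went to 0.0400 (limma), which made it a call. The SE of Fads1 went from 0.066 to 0.075 and its adjusted p to 0.0639 (limma). The adjusted p of Acly went to 0.0996 (limma). In that blocked fit 0.713% of genes were called higher. The day effect in the unnumbered pair less that in the numbered arrays was 0.25 for Fads1, -0.32 for Acly and 0.01 for Scd, and the interaction passed the test for none of them (adjusted p = 1 for each, limma), with only 1 unnumbered array per day.

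**Figure D3:**
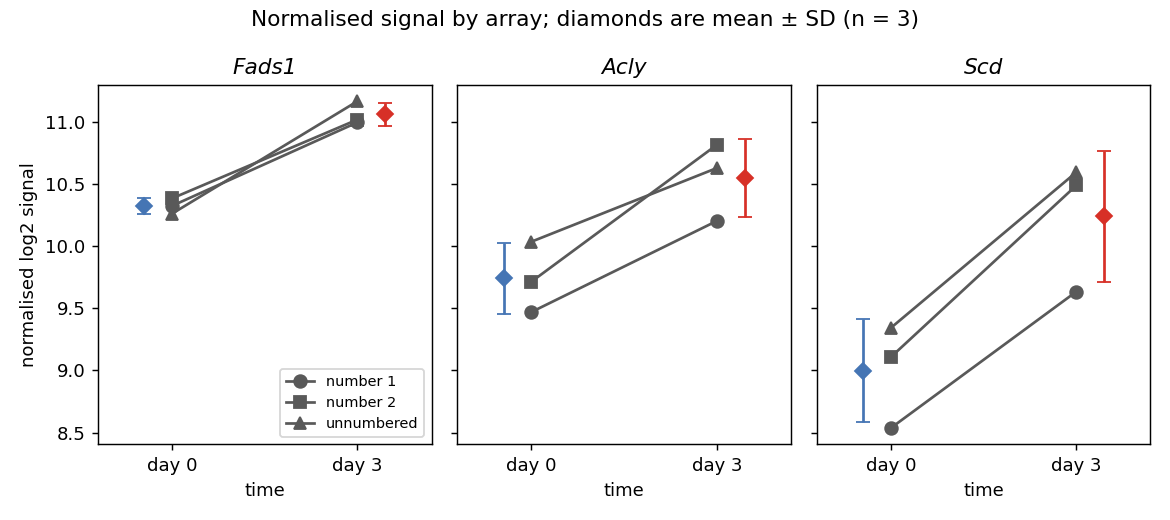
Normalised log2 signal of Fads1, Acly and Scd at day 0 and day 3, with lines joining arrays of the same number or the unnumbered pair and diamonds for mean ± SD (n = 3). All lines slope upward; those of Scd start apart and run nearly parallel, and those of Fads1 start close together.

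Whether the genes changed by different amounts was tested on the log2 ratio of each pair of genes within an array. Scd changed by 0.43 more than Acly (exact permutation p = 0.1, two-sided, the smallest possible with 3 against 3 arrays; 0.3 after adjustment over the 3 pairs of genes). The difference was 0.36, 0.28 and 0.66 in number 1, number 2 and the unnumbered pair. Scd changed by 0.51 more than Fads1 (exact permutation p = 0.3, adjusted 0.45), by 0.42, 0.75 and 0.35 within the pairs. Acly and Fads1 differed by 0.07 (exact permutation p = 0.7, adjusted 0.7), with within-pair differences from -0.31 to 0.47. The exact permutation test cannot go below 0.1 with 3 against 3 arrays, so none of these differences could pass 0.05 by it, and no other test of them was run. In the main setting Scd changed more than Acly and more than Fads1 within each of the 3 pairs of arrays, and a p that misses the threshold does not show that the genes changed alike. Correction with the background deposited beside each spot gave 0.015 for Acly minus Scd and 0.10 for Scd minus Fads1. Without background correction these were -0.42 and 0.49. Pairs with Srebf1 or Acaca were left out, since neither had a measurable signal.

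Acly and Scd also varied alike between arrays. Over the 6 arrays, which include the difference between days, the Pearson likeness of their normalised values was 0.98, and 13 of the genes tested, Scd included, were at least as like Acly. Fads1 was less like them, at 0.84 with Acly and 0.87 with Scd, and 712 genes were at least as like Acly as Fads1 was. The probes most like the mean of the standardised values of Fads1, Acly and Scd were ENSRNOG00000009371 (likeness 0.995, log2 fold change 1.27, adjusted p = 0.0897, limma) and ENSRNOG00000002080 (0.994, 0.73 and adjusted p = 0.0972, limma). Neither identifier is paired with a symbol, and neither passed the test. All arrays share 1 normalisation, so these figures only describe the 6 arrays.

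The deposited background column bore on these genes. It followed the brightness of the spot, with a Spearman correlation of 0.917 to 0.968 over the gene probes of each array, which is a description over probes. At the Fads1 spot it amounted to 5.12% of the signal on day 3 number 1 and 50.04% on day 3 number 2. At the Scd spot it was 84.7% on the unnumbered day 3 array and 34.6% on day 3 number 1. For Acly it ran from 27.2% to 77.1%. The authors' processed values do not subtract this column: on each array they followed a straight line in the spot signal, with a largest residual of 5.27e-06, and the line reached zero at 12.5 to 15.4 scanner units, close to the trimmed mean of that array's blank spots (also 12.5 to 15.4). When the column was used for the correction in place of the blank spots, the log2 fold changes were 0.86 for Fads1, 0.96 for Scd and 0.97 for Acly, with SEs of 0.30, 0.41 and 0.57. None was then called (adjusted p = 0.655, 0.746 and 0.848, limma), and 0.0259% of all genes were called higher. With no background correction, but with the same offset of 50 added, the values were 0.73, 1.22 and 0.80. Fads1 was then called (adjusted p = 0.0247, limma), and 0.726% of genes were called higher.

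**Figure D4:**
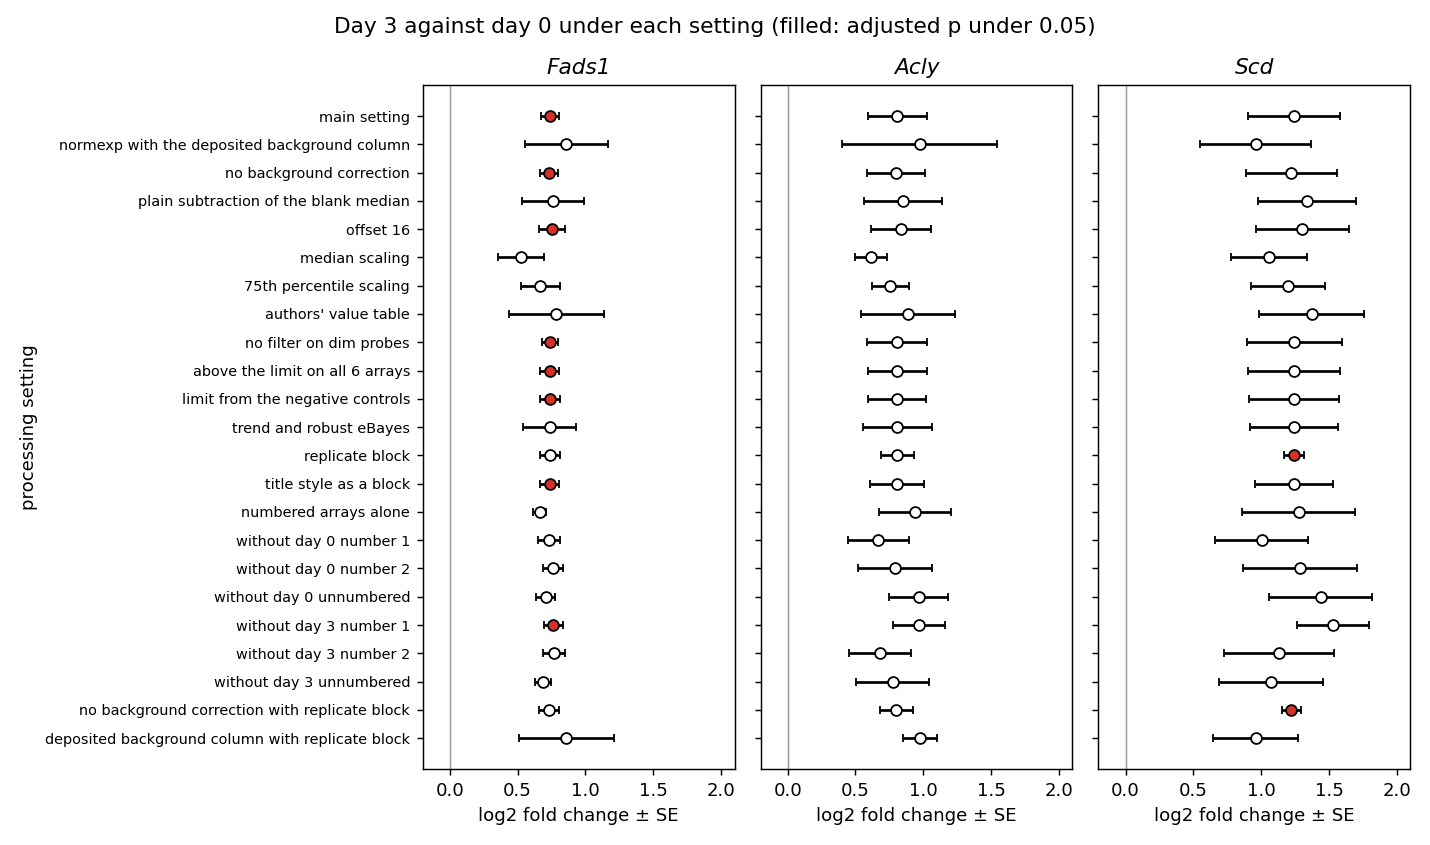
Log2 fold change ± SE (day 3 minus day 0) of Fads1, Acly and Scd under the main setting and 22 others; filled points have an adjusted p under 0.05 (limma). All points lie above 0, and filled points are 8 for Fads1 with the main setting included, 2 for Scd and 0 for Acly.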

How the data were processed

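RNA from cultured rat oligodendrocyte precursors was amplified and coupled to Cy5 by a protocol of Toray, per the labels' protocols, and measured on 6 arrays. Per the file headers, the deposited scanner files give each spot a median intensity at 635 nm, read at 3 gains, and a background intensity beside it. The deposited value table holds the authors' processed intensity, linear, with a median of 25 on every array and no value below a limit; its relation to the signal was found by setting it against the scanner files. Signal over background, not counts, sets what can be seen, and the number of arrays limits the precision.

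The spot intensity was corrected with normexp (offset 50) against the median of the 5808 blank spots, control spots were then dropped, and quantile normalisation followed on the log2 scale. Because of the offset a fold change understates that of dim genes. Day 3 was compared with day 0 by lmFit and eBayes in limma 3.58.1 under R 4.3.3, without a block, with Benjamini-Hochberg adjustment over all 15437 genes tested and a threshold of 0.05. The fit was tested on simulated data. Over 20 simulations it recovered 60.6% of genes given a log2 change of 1, with a mean of 11 unchanged genes called. That was the smallest change simulated, and those of Fads1 and Acly were smaller. Deviations from the group means correlated by 0.27, 0.48 and 0.60 within the pairs of number 1, number 2 and the unnumbered arrays, all over 0.1, and were taken as a pairing; that rests on the data, and a difference between title styles also adds to it.

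The members, lists and settings, including the choice of blank spots over the background column, were made with earlier results of these data known. The rule for named genes was the 5 members, list genes and the probes most like the members. Lists of other lipid genes and cell type markers were fixed by symbol and not used here, as 0 rows of the reference table hold an Ensembl identifier. Likeness to Srebf1 was not computed, as its signal was at the blank level. Promoter sequences matched 4 of the 5 symbols. No spot of the 5 genes carried a flag other than OK. Alternatives covered the background, offset, scaling, the authors' table, filter, variance model, blocks and arrays left out.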

Additional observations from a re-analysis of the deposited data

How the results depend on the processing

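Direction was the same in every setting tried for Fads1, Scd and Acly. With 126 genes called higher, 55 lower and 1 of the 5 genes called in the main fit, normexp with the deposited background column gave 4, 1 and 0, plain subtraction of the blank median 378, 152 and 0, trend and robust eBayes 301, 102 and 0, and the numbered arrays alone 0, 0 and 0 (limma; 2035 genes at an unadjusted p under 0.05). An offset of 16 gave 204 and 86, title style as a block 193 and 135, and no filter on dim probes 69 higher, each with 1 of the 5 called. The 75th percentile scaling gave 207 higher and 0 of the 5 called and shifted the median of all genes by 0.12, the authors' value table gave 275 and 0, and median scaling 0 of the 5. Rises made up most calls in the main fit and, by a smaller margin, with median scaling, which gave 85 higher and 63 lower. Fads1 lost its call with the deposited column (0.86), plain subtraction (0.76), median scaling (0.52), 75th percentile scaling (0.67), the authors' table (0.79), trend and robust eBayes (0.74), the replicate block (0.74) and the numbered arrays alone (0.66), and its value in the unnumbered pair was 0.91. The replicate block made Scd a call (1.24). Chosen after seeing the data, the replicate block without background correction called Scd (1.22) and not Fads1 (0.73), and the block with the deposited column called 0 of the 5 and 0 genes in either direction (limma; 1347 at an unadjusted p under 0.05), with Fads1 at 0.86. Leaving out each array gave 0 to 96 genes higher, 1 to 23 lower, 0 to 1 of the 5 called, and log2 fold changes of 0.69 to 0.77 for Fads1, 1.00 to 1.53 for Scd and 0.67 to 0.97 for Acly. The adjusted p ran over the alternatives from 0.0231 to 0.655 for Fads1, 0.0400 to 0.746 for Scd and 0.0575 to 0.848 for Acly (limma). The difference between Acly and Scd, -0.43, became 0.015 with the deposited column. The cause of these changes was not tested, except that fits with arrays left out or a block have fewer residual degrees of freedom. The alternatives for gene lists were not run, as no list could be matched. For Srebf1 and Acaca the signal, level with blank spots, is the limit.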
